A study of Mus musculus with 12 samples.

Results

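The 43 genes described here encode the receptors, postsynaptic scaffolds and release machinery of glutamatergic synapses. They are 4 AMPA receptor subunits, 5 NMDA receptor subunits, 4 kainate and delta receptor subunits, 3 metabotropic glutamate receptors, 5 AMPA receptor auxiliary subunits and pentraxins, 4 membrane-associated guanylate kinase scaffolds, 6 SAPAP and Homer scaffolds, 2 CaMKII subunits, 2 glutamate transporters and 8 vesicle and release proteins. The genes were listed by name, with earlier results of these data known, and all 43 were among the 57010 genes of the count table. All 43 were also among the 19166 genes that passed the filter on low counts.

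RNA from cerebellar crus 1 of mice was sequenced in 12 libraries, in 3 groups of 4. One group was FVB mice given saline, here FVB saline. A second was Fmr1 knockout mice given saline, here knockout saline, whose titles say sham. The third was Fmr1 knockout mice given poly(I:C), a synthetic double-stranded RNA that activates innate antiviral signalling, by intraperitoneal injection, here knockout poly(I:C). Fmr1 encodes FMRP, an RNA-binding protein of neurons whose loss causes fragile X syndrome. The sources used here do not give the knockout allele, age, sex, dose or time after injection, and no FVB group received poly(I:C). The labels name separate samples without saying that each came from its own animal, and p-values therefore describe variation among these samples, which may be technical.

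At a glutamatergic synapse, vesicles filled by vesicular glutamate transporters fuse through SNARE proteins when a synaptotagmin binds calcium. AMPA receptors carry most of the fast current, NMDA receptors admit calcium, and kainate, delta and metabotropic receptors shape transmission. Scaffold proteins of the postsynaptic density hold these receptors in place beside CaMKII. In the cerebellum the main such synapses are those of mossy fibres onto granule cells and of parallel and climbing fibres onto Purkinje cells.

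Total counts per library were 35155420 to 48717119 in FVB saline, 38723699 to 50248411 in knockout saline and 39352860 to 56390207 in knockout poly(I:C), and the 43 genes held 1.23% to 1.35% of them. Levels are in CPM, read counts divided by the scaled library total and multiplied by 1e6. The targeted gene Fmr1 measured 95.0 ± 9.41 CPM in FVB saline, 31.8 ± 4.17 in knockout saline and 34.6 ± 0.978 in knockout poly(I:C) (SD, n = 4 each). Cerebellar markers were abundant: the granule cell gene Cbln3 averaged 1993 CPM and the Purkinje cell gene Itpr1 3493 CPM in FVB saline, while the forebrain gene Emx1 averaged 0.0823 CPM. The choroid plexus gene Ttr exceeded 1000 CPM in knockout saline library 2 (4156 CPM) and knockout poly(I:C) libraries 2 (2167 CPM) and 3 (2631 CPM), against 1.63 to 65.3 CPM in the other 9. Calls are given with and without these 3 libraries, a choice made after seeing the data. In bulk tissue, fewer cells of a type and less RNA per cell cannot be told apart.

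Grin1 and Grik2, the 2 members that rose under poly(I:C), had promoter sequences in RefSeq on GRCm38.p6, running from 250 bases before to 50 after the annotated start. They are shown as the sequence context of these genes, with motif matches in capitals. Both lie on the minus strand, at chr2:25319138-25319437 and chr10:49788705-49789004.
Grin1: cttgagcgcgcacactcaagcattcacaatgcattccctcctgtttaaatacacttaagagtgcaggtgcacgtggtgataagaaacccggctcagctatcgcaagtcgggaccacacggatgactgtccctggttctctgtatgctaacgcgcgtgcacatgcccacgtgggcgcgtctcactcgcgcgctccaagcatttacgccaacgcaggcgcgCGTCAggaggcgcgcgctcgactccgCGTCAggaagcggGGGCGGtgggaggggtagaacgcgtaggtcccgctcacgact
Grik2: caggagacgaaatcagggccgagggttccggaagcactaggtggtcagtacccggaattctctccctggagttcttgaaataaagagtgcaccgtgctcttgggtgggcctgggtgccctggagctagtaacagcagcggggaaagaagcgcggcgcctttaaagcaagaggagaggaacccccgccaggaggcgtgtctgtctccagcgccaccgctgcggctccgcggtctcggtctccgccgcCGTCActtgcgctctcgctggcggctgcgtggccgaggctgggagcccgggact
The Grin1 stretch was 60.7% G and C with 33 CpG sites, and the Grik2 stretch 64.7% with 26 CpG sites. The capitals in Grin1 mark the shortened cyclic AMP response element TGACG, here on the opposite strand as CGTCA, beginning 31 and 5 bases before the start, and the GC box GGGCGG from base 9 of the transcript. In Grik2 they mark 1 TGACG that begins 4 bases before the start.

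Promoters were given for 29 of the 43 genes, 46 in all, and 6 motifs were searched on both strands. TGACG, which also lies inside the full element TGACGTCA, was found in 10 of the 46 member promoters and in 20.8% of all 32851 promoters of this length. TGACGTCA itself was in 1 member promoter (Syn1) and 1.79% of all. The GC box was in 22 member promoters and 35.7% of all, and TATAAA in 3 and 13.6%. Of the 2 motifs bound by interferon-activated factors, a pair of GAAA separated by 2 bases was in 1 member promoter (Homer1) and 3.44% of all, and TTCNNNGAA in 1 (Syn2) and 8.30% of all. Each match is a string of letters, not a shown binding site.

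Levels between genes were compared per length, as CPM per kilobase of exon. In FVB saline the SNARE genes Snap25 (525) and Vamp2 (212), whose proteins drive vesicle fusion, stood highest, followed by the secreted pentraxin Nptx1 (141) and the AMPA receptor auxiliary subunit Cacng7 (127). Gria1 (98.9), Camk2b (98.4), Gria4 (90.2) and Syt2 (88.7) came next. Gria1 and Camk2b differed by less than their SD between libraries, as did Gria4 and Syt2. At the low end were Dlgap2 (0.155), Grin2b (0.683), Grm5 (0.767), Homer2 (0.977) and Stx1a (1.18). Of the 43 genes, 40 averaged at least 10 CPM over the libraries; the exceptions were Grm5, Stx1a and Dlgap2.

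**Figure D1:**
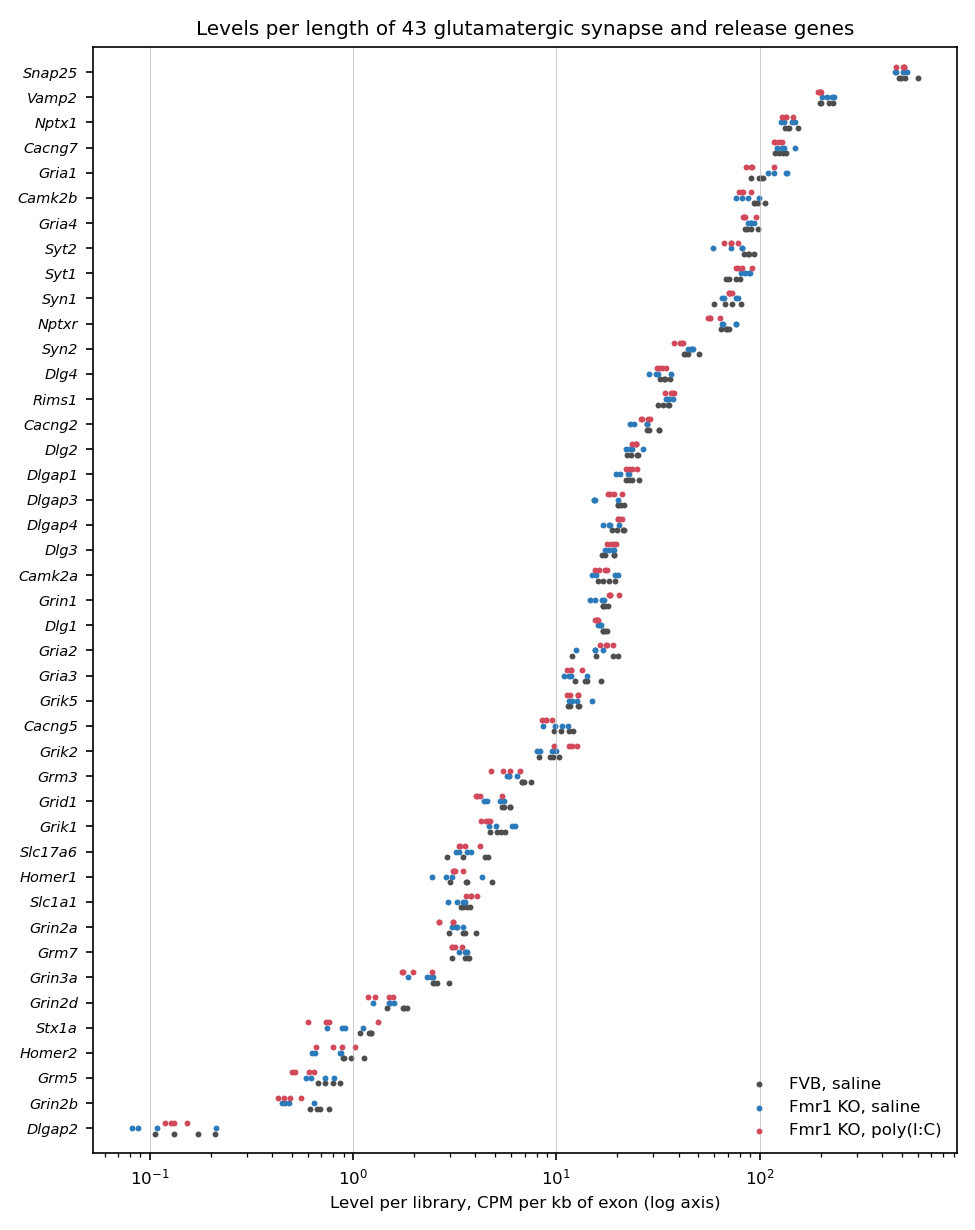
Level of each of the 43 genes in every library, in CPM per kilobase of exon on a log axis, sorted by level; points are libraries, coloured by group. Snap25 averages 525 and Dlgap2 0.155 in FVB saline, and the 3 groups lie close together on this scale for nearly every gene.

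In knockout saline against FVB saline, none of the 43 genes passed the test. The count was 0 at an adjusted p under 0.05 (edgeR quasi-likelihood fit, Benjamini-Hochberg over all 19166 genes), where 1.53% of all genes were called (1.52% of the genes averaging at least 10 CPM). At an unadjusted p under 0.05, 11 members passed, 2 with higher and 9 with lower counts in the knockout, against 12.0% of all genes. DESeq2 called 3 members (Dlgap3, Grin2b and Gria1) among 633 genes, and limma-voom 0 members among 225 genes. Fold changes, on a log2 scale throughout, were negative for 30 members and positive for 13, with a median of -0.11 against 0.0033 over all genes. Counts did not overlap between the groups for 6 members that were lower in every knockout library (Grin3a, Grm3, Cacng2, Dlg1, Homer2 and Syt2; 3.45% of all genes) and 2 that were higher (Gria1 and Syt1; 3.57%).

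In knockout poly(I:C) against knockout saline, 4 members passed: Grin1 and Grik2 rose and Gria1 and Nptxr fell. Over all genes 2.87% were called (2.76% of those averaging at least 10 CPM), 1.81% upward and 1.06% downward. The members' fold changes were positive for 18 and negative for 25, with a median of -0.05 against -0.0017 over all genes. Groups did not overlap for 2 members that were higher (Grin1 and Slc1a1; 4.93% of all genes) and 4 that were lower (Nptxr, Dlg1, Syn2 and Vamp2; 4.82%).

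Knockout poly(I:C) differs from FVB saline in both genotype and treatment, and in that comparison 6 members fell and none rose: Grin2a, Grin2b, Grin3a, Grid1, Cacng5 and Syt2. Over all genes 7.05% were called (7.50% of those averaging at least 10 CPM) and 3.24% fell. Fold changes were negative for 33 members and positive for 10, with a median of -0.11 against 0.0010 over all genes. Groups did not overlap for 11 members that were lower (7.46% of all genes) and for 1 that was higher, Grin1 (6.74%). The 3 comparisons share libraries, so they are not independent of one another.

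**Figure D2:**
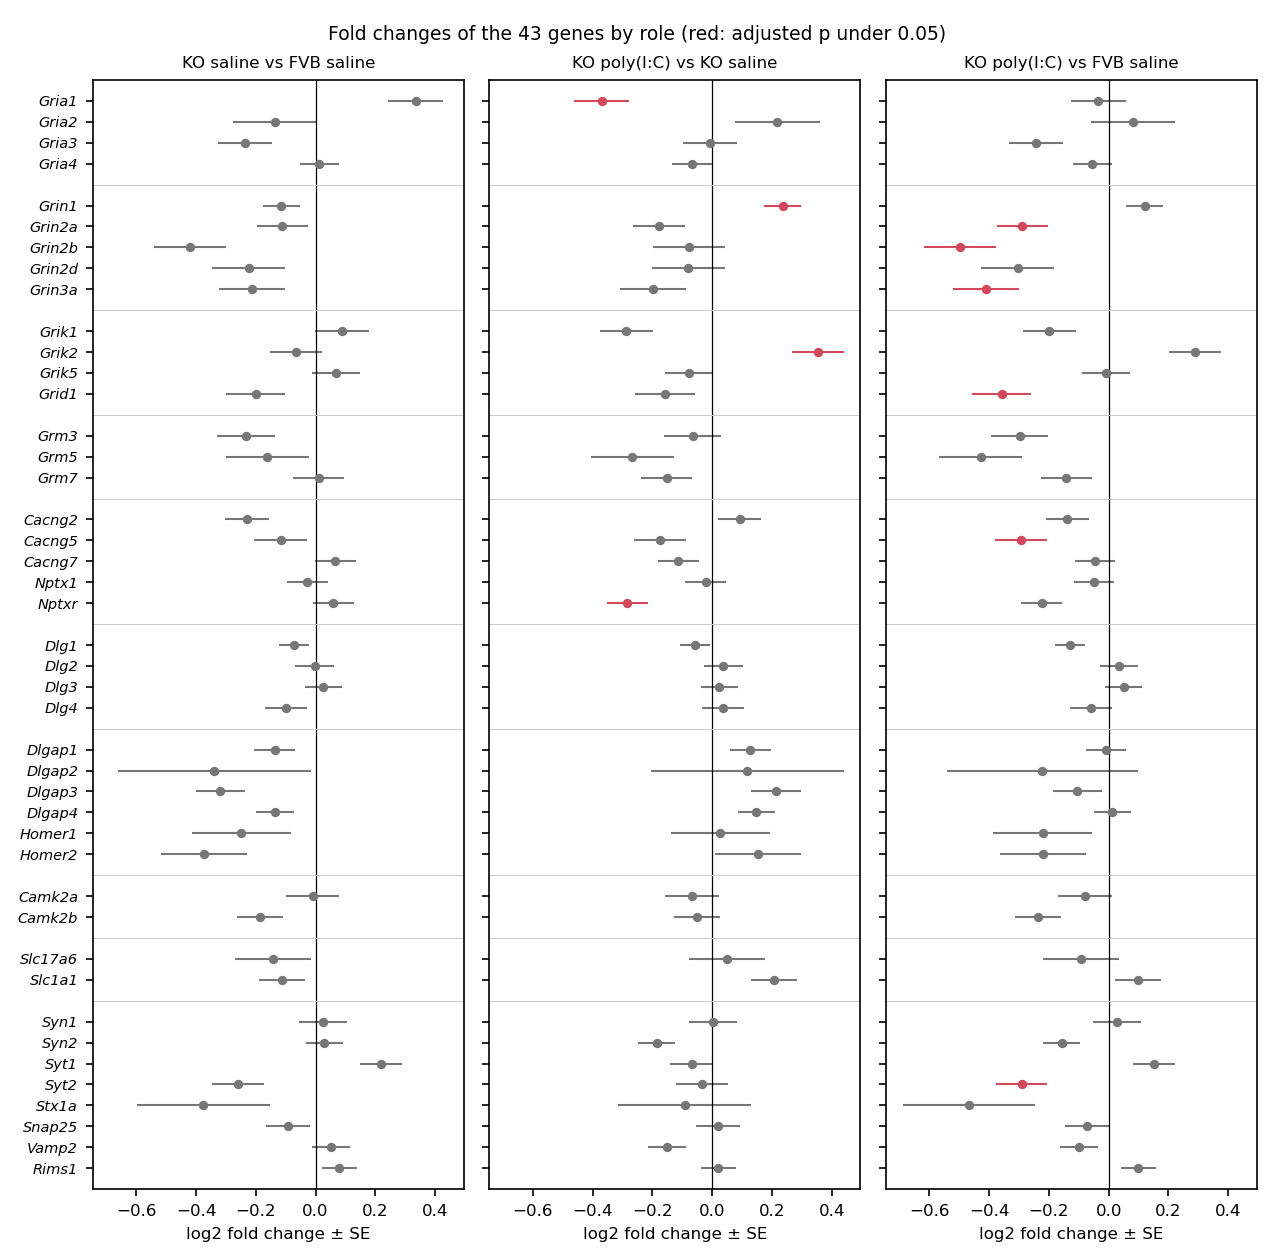
Log2 fold change ± SE of each of the 43 genes in the 3 comparisons, grouped by role; red points passed an adjusted p of 0.05 in edgeR's test over all genes. No gene is red in the genotype comparison, 4 are under poly(I:C) within the knockout, and 6, all left of 0, are red against FVB saline.

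The 3 libraries above 1000 CPM of Ttr were then left out, which leaves 4, 3 and 2 libraries. No member passed in any comparison by edgeR's test, where 229, 215 and 556 of 19814 genes were called. An unadjusted p under 0.05 was found for 9, 5 and 7 members. With all 12 libraries 12.0%, 15.5% and 21.3% of all genes had such a p, a share not counted without the Ttr-high libraries. On the same 9 libraries DESeq2 called 1, 0 and 2 members and limma-voom 0 in each, with no count over all genes. With log2 Ttr as a covariate, Grin1 lost its call under poly(I:C) and 5 of the 6 against FVB saline lost theirs, all but Grin2b. A fit of only the 2 knockout groups ended the calls of Gria1 and Grin1, a fit without knockout saline ended that of Grin2a, and limma-voom or a stricter filter on low counts ended those of Grin2a, Cacng5 and Syt2. RLE or upper quartile scaling also ended those of Cacng5 and Syt2. Without the Ttr-high libraries 40 of the 43 members kept their direction in knockout saline against FVB saline, 37 under poly(I:C) and 38 in knockout poly(I:C) against FVB saline. Those that changed sign under poly(I:C) were Gria3, Grin2d, Homer1, Syn1, Syt2 and Rims1, with values of at most 0.05 in either direction afterwards. In these fits 27 members were negative and 16 positive in knockout saline against FVB saline, 25 and 18 under poly(I:C), and 30 and 13 in knockout poly(I:C) against FVB saline. The choroid plexus markers summed to 219 to 291 CPM in FVB saline, 211 to 6246 CPM in knockout saline and 158 to 4062 CPM in knockout poly(I:C).

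AMPA receptors carry the fast excitatory current, and Gria1 encodes a subunit that is abundant in Bergmann glia of the cerebellum. Gria1 measured 603, 625, 550.0 and 613 CPM in FVB saline libraries 1 to 4, 822, 715, 812 and 665 CPM in knockout saline 1 to 4, and 711, 550.3, 519 and 553 CPM in knockout poly(I:C) 1 to 4. Every knockout saline library lay above every FVB library, and 3 of the 4 poly(I:C) libraries lay below all knockout saline libraries. Gria1 fell under poly(I:C) by 0.37 (log2, SE 0.092; 0.774 times the level; adjusted p = 0.0357 by edgeR), and the difference of knockout saline from FVB saline was 0.33 (log2, SE 0.092; adjusted p = 0.0848 by edgeR). Both comparisons rest on the same knockout saline libraries, and knockout poly(I:C) differed from FVB saline by only -0.04 (adjusted p = 0.870). The difference of knockout saline from FVB saline passed by DESeq2, with no filter on low counts and in a fit of only those groups. It also passed without knockout poly(I:C) 1 and with log2 Ttr as a covariate, and in no other alternative. The Gria1 difference under poly(I:C) was -0.28 without the Ttr-high libraries (adjusted p = 0.535 by edgeR). The call held in 4 of 12 fits leaving out 1 library and was lost without FVB saline 1 or 4, knockout saline 1, 2 or 3, or knockout poly(I:C) 2, 3 or 4, where the adjusted p reached 0.139. The other 3 AMPA subunits did not pass: Gria2, whose edited subunit blocks calcium entry, ranged from 186 to 313 CPM within FVB saline alone, Gria3 averaged 141, 119.5 and 119 CPM in the 3 groups, and Gria4 569, 574 and 548 CPM.

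NMDA receptors are built around the obligatory subunit encoded by Grin1. Grin1 measured 166, 174, 166 and 168 CPM in FVB saline libraries 1 to 4, 149.8, 142, 167 and 163 CPM in knockout saline 1 to 4, and 177, 179, 198 and 179 CPM in knockout poly(I:C) 1 to 4. Grin1 was higher in every poly(I:C) library than in any other library. Grin1 rose under poly(I:C) by 0.24 (log2, SE 0.062; 1.18 times the level; adjusted p = 0.0447 by edgeR). It was higher by 0.15 without the Ttr-high libraries (adjusted p = 0.727 by edgeR), and the call held in 3 of 12 fits leaving out 1 library (those without FVB saline 2, knockout saline 3 or knockout saline 4), with adjusted p up to 0.174. Exons of an antisense gene, Grin1os, cover 13.5% of Grin1's exon length in GENCODE M21. Grin1os itself measured 5.49, 6.12 and 6.89 CPM in the 3 groups, and since the sources used here do not say whether counting used strand, reads of the 2 genes cannot be told apart.

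The 4 other NMDA subunits all had lower means in knockout poly(I:C) than in FVB saline, and 3 of them fell. Grin2b encodes GluN2B, the slow-closing subunit that is typical of young neurons. Grin2b measured 18.9, 15.3, 16.5 and 17.2 CPM in FVB saline libraries 1 to 4, 15.9, 12.1, 11.2 and 11.5 CPM in knockout saline 1 to 4, and 12.2, 13.8, 10.7 and 11.4 CPM in knockout poly(I:C) 1 to 4. No poly(I:C) library reached the lowest FVB library, and 3 of the 4 knockout saline libraries were also below it. Grin2b fell against FVB saline by 0.50 (log2, SE 0.12; 0.708 times the level; adjusted p = 0.0156 by edgeR). Its difference between knockout saline and FVB saline was -0.42 (log2, SE 0.12; adjusted p = 0.0972 by edgeR), which did not pass. Among the alternatives that difference passed only by DESeq2, with no filter on low counts and without knockout saline 1. Without the Ttr-high libraries the log2 value of knockout poly(I:C) against FVB saline was -0.52 (adjusted p = 0.0889 by edgeR). In that comparison Grin2b kept its call in 10 of 12 fits leaving out 1 library. It lost the call without FVB saline 1 or knockout poly(I:C) 3, with adjusted p up to 0.0665.

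Grin2a encodes GluN2A, the faster subunit that dominates in mature neurons. Grin2a measured 53.4, 62.5, 72.5 and 64.0 CPM in FVB saline libraries 1 to 4, 55.3, 58.6, 57.8 and 62.2 CPM in knockout saline 1 to 4, and 47.4, 56.0, 47.6 and 55.9 CPM in knockout poly(I:C) 1 to 4. The groups overlapped, with 2 poly(I:C) libraries above the lowest FVB library. Grin2a fell against FVB saline by 0.29 (log2, SE 0.086; 0.819 times the level; adjusted p = 0.0495 by edgeR). The call sat at the threshold: it held only without FVB saline 1 or knockout saline 4 when 1 library was left out, the adjusted p reached 0.170 otherwise, and without the Ttr-high libraries the log2 value was -0.29 (adjusted p = 0.265 by edgeR).

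Grin3a encodes a glycine-binding subunit that lowers the calcium flow of NMDA receptors. Grin3a measured 36.3, 30.5, 31.7 and 30.6 CPM in FVB saline libraries 1 to 4, 29.6, 28.4, 30.4 and 23.0 CPM in knockout saline 1 to 4, and 29.9, 24.1, 21.3 and 21.7 CPM in knockout poly(I:C) 1 to 4. All poly(I:C) libraries lay below all FVB libraries, and so did all knockout saline libraries. Grin3a fell against FVB saline by 0.41 (log2, SE 0.11; 0.752 times the level; adjusted p = 0.0301 by edgeR). Leaving out any FVB saline library or knockout poly(I:C) 2, 3 or 4 ended the call, with adjusted p up to 0.112, and without the Ttr-high libraries the log2 value was -0.32 (adjusted p = 0.362 by edgeR). Grin2d averaged 11.4, 9.78 and 9.24 CPM and did not pass.

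Kainate receptors modulate transmission on both sides of the synapse, and Grik2 encodes a subunit found in granule cells. Grik2 measured 127, 109, 137 and 124 CPM in FVB saline libraries 1 to 4, 111, 132, 107 and 126 CPM in knockout saline 1 to 4, and 129.6, 158, 167 and 154 CPM in knockout poly(I:C) 1 to 4. Knockout poly(I:C) 2, 3 and 4 were above all other libraries, and poly(I:C) 1 lay within the range of the saline groups. Grik2 rose under poly(I:C) by 0.35 (log2, SE 0.087; 1.28 times the level; adjusted p = 0.0338 by edgeR). Against FVB saline the difference was 0.29 (adjusted p = 0.0537 by edgeR). With the Ttr-high libraries left out the change under poly(I:C) was 0.31 (adjusted p = 0.375 by edgeR). Leaving out knockout saline 1 or 3 or knockout poly(I:C) 2, 3 or 4 ended the call, with adjusted p up to 0.125. Grik1 averaged 34.9, 37.2 and 30.4 CPM and Grik5 63.1, 66.1 and 62.7 CPM, and neither passed.

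Grid1 encodes the delta receptor GluD1, which binds cerebellins across the synapse. Grid1 measured 35.3, 35.3, 33.0 and 32.1 CPM in FVB saline libraries 1 to 4, 33.1, 27.3, 31.7 and 26.2 CPM in knockout saline 1 to 4, and 32.3, 24.0, 24.3 and 25.3 CPM in knockout poly(I:C) 1 to 4. Poly(I:C) libraries 2, 3 and 4 lay below every FVB library, while poly(I:C) 1 was at the lower edge of the FVB range. Grid1 fell against FVB saline by 0.36 (log2, SE 0.099; 0.780 times the level; adjusted p = 0.0338 by edgeR). Without the Ttr-high libraries the log2 value was -0.24 (adjusted p = 0.457 by edgeR), and leaving out any FVB saline library or knockout poly(I:C) 2, 3 or 4 ended the call, with adjusted p up to 0.120.

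**Figure D3:**
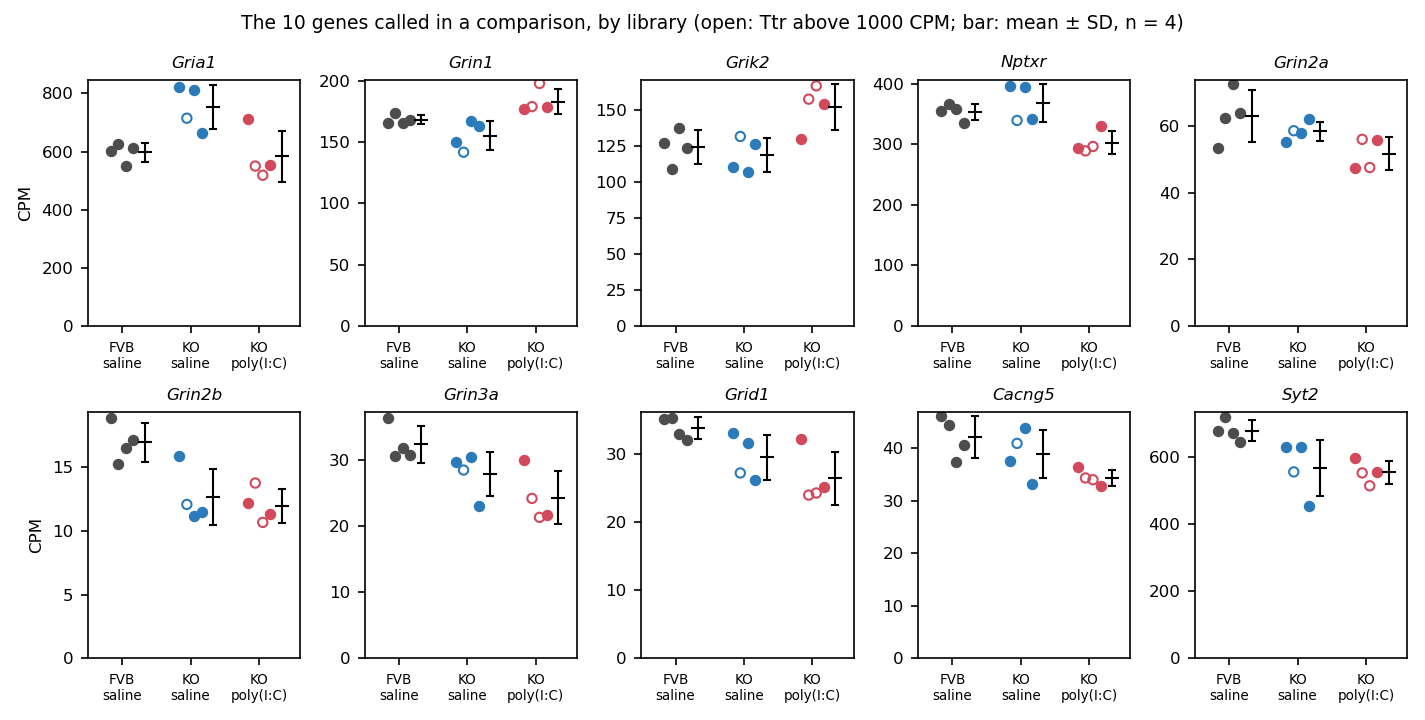
CPM in every library of the 10 genes that passed in at least 1 comparison, with the mean ± SD (n = 4) beside each group; open points are the 3 libraries above 1000 CPM of Ttr, and axes start at 0. Grin1 is highest in the 4 poly(I:C) libraries (177 to 198 CPM), and Grin2b is lower in all 4 poly(I:C) libraries (10.7 to 13.8 CPM) than in any FVB library (15.3 to 18.9 CPM).

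No metabotropic receptor gene among the members passed in any comparison by edgeR's test, while DESeq2 called Grm3 and Grm5 in knockout poly(I:C) against FVB saline. Grm3, which encodes a receptor that lowers cyclic AMP in neurons and astrocytes, had the smallest p of the 3. Grm3 measured 22.8, 20.7, 20.7 and 21.3 CPM in FVB saline libraries 1 to 4, 17.9, 17.8, 19.5 and 17.5 CPM in knockout saline 1 to 4, and 18.1, 20.2, 14.5 and 16.6 CPM in knockout poly(I:C) 1 to 4. All 8 knockout libraries were below all FVB libraries. The difference of knockout poly(I:C) from FVB saline was -0.30 (log2, SE 0.096; adjusted p = 0.0702 by edgeR). It was -0.30 without the Ttr-high libraries (adjusted p = 0.22 by edgeR), and it passed by DESeq2 (adjusted p = 0.0332) and by edgeR without knockout poly(I:C) 2 (0.0296). Grm5, which encodes a group I receptor, averaged 7.86, 7.03 and 5.84 CPM with no overlap between knockout poly(I:C) and FVB saline (adjusted p = 0.0715 by edgeR), and the presynaptic receptor gene Grm7 averaged 20.7, 20.8 and 18.7 CPM.

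Nptxr encodes the membrane-bound neuronal pentraxin, which clusters AMPA receptors together with the secreted pentraxins. Nptxr measured 355, 366, 358 and 335 CPM in FVB saline libraries 1 to 4, 397, 339, 395 and 342 CPM in knockout saline 1 to 4, and 295, 289, 297 and 330.1 CPM in knockout poly(I:C) 1 to 4. All poly(I:C) libraries were below all knockout saline and all FVB libraries. Nptxr fell under poly(I:C) by 0.28 (log2, SE 0.068; 0.822 times the level; adjusted p = 0.0264 by edgeR). Nptxr changed by -0.27 without the Ttr-high libraries (adjusted p = 0.281 by edgeR). Leaving out knockout saline 1 or 3 or knockout poly(I:C) 1, 2 or 3 ended the call, with adjusted p up to 0.0983. A gene on the same strand, Npcd, shares 17.2% of Nptxr's exon length in GENCODE M21 and had 0 counts in every library, so how the counting assigned reads of shared exons is uncertain. Nptx1, a secreted partner, averaged 737, 723 and 712 CPM and did not pass.

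Cacng5 encodes an AMPA receptor auxiliary subunit of the stargazin family. Cacng5 measured 46.2, 44.5, 37.3 and 40.6 CPM in FVB saline libraries 1 to 4, 37.6, 40.9, 43.8 and 33.1 CPM in knockout saline 1 to 4, and 36.4, 34.3, 34.0 and 32.8 CPM in knockout poly(I:C) 1 to 4. Poly(I:C) libraries were below every FVB library but overlapped knockout saline. Cacng5 fell against FVB saline by 0.29 (log2, SE 0.087; 0.817 times the level; adjusted p = 0.0498 by edgeR). That call also sat at the threshold: it held in 3 of 12 fits leaving out 1 library (those without FVB saline 3, knockout saline 3 or knockout saline 4), with adjusted p up to 0.139, and the log2 value without the Ttr-high libraries was -0.28 (adjusted p = 0.313 by edgeR). Cacng2, which encodes stargazin itself, averaged 166, 142 and 151 CPM, and Cacng7 averaged 310.1, 325 and 300.2 CPM; neither passed.

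Among the membrane-associated guanylate kinases, which anchor receptors in the postsynaptic density, no gene passed by edgeR's test, while DESeq2 called Dlg1 in knockout poly(I:C) against FVB saline (adjusted p = 0.0347). Dlg1, which encodes SAP97, had the smallest p. Dlg1 measured 182, 182, 187 and 191 CPM in FVB saline libraries 1 to 4, 177, 177, 173 and 179 CPM in knockout saline 1 to 4, and 170.3, 166, 172 and 170.3 CPM in knockout poly(I:C) 1 to 4. The 3 groups did not overlap at all, with FVB saline highest and knockout poly(I:C) lowest. The difference of knockout poly(I:C) from FVB saline was -0.13 (log2, SE 0.050; adjusted p = 0.136 by edgeR). The Dlg1 difference without the Ttr-high libraries was -0.12 (adjusted p = 0.562 by edgeR). Dlg2, Dlg3 and Dlg4, the last encoding PSD-95, had fold changes between -0.10 and 0.05 in all 3 comparisons.

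The SAPAP and Homer scaffolds link guanylate kinases to Shank and metabotropic receptors to calcium stores. All 6 were lower on average in knockout saline than in FVB saline and all 6 higher in knockout poly(I:C) than in knockout saline, a pair of comparisons that share the knockout saline libraries; none passed by edgeR's test. Under poly(I:C) 5 of the 6 were still higher without the Ttr-high libraries, and Homer1 stood at -0.05. Their summed level was 719 to 805 CPM per library in FVB saline, 626 to 708 CPM in knockout saline and 694 to 767 CPM in knockout poly(I:C). Dlgap3 measured 90.7, 90.7, 97.8 and 94.1 CPM in FVB saline libraries 1 to 4, 70.0, 69.2, 90.9 and 69.2 CPM in knockout saline 1 to 4, and 81.7, 86.8, 83.3 and 95.2 CPM in knockout poly(I:C) 1 to 4. Knockout saline 1, 2 and 4 lay near 70 CPM, below all other libraries, while knockout saline 3 was as high as FVB saline. For Dlgap3 the difference of knockout saline from FVB saline was -0.32 (log2, SE 0.082; adjusted p = 0.0590 by edgeR). Without knockout saline 3 it passed (adjusted p = 0.00213 by edgeR), as it did by DESeq2 (0.0178) and with no filter on low counts (0.00332 by edgeR), and without the Ttr-high libraries it was -0.28 (0.232 by edgeR). Dlgap1, Dlgap2, Dlgap4, Homer1 and Homer2 ranged from -0.37 to -0.14 in knockout saline against FVB saline.

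CaMKII is the calcium-activated kinase of the postsynaptic density. Camk2b measured 868, 966, 893 and 862 CPM in FVB saline libraries 1 to 4, 804, 747, 908 and 698 CPM in knockout saline 1 to 4, and 757, 719.6, 748 and 825 CPM in knockout poly(I:C) 1 to 4. All poly(I:C) libraries were below all FVB libraries for this beta subunit. The difference of knockout poly(I:C) from FVB saline was -0.24 (log2, SE 0.076; adjusted p = 0.0710 by edgeR). Camk2b passed by DESeq2 (adjusted p = 0.0381), with edgeR in a fit of only those 2 groups (0.0307), with no filter on low counts (0.0469), and without knockout saline 3 (0.0388) or 4 (0.0443). Its value without the Ttr-high libraries was -0.18 (adjusted p = 0.513 by edgeR). Camk2a, the alpha subunit, averaged 132, 131 and 125 CPM.

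Slc1a1 encodes the neuronal glutamate transporter EAAC1. Slc1a1 measured 28.6, 31.3, 28.0 and 30.2 CPM in FVB saline libraries 1 to 4, 26.8, 28.8, 29.5 and 24.3 CPM in knockout saline 1 to 4, and 33.6, 31.5, 29.8 and 31.3 CPM in knockout poly(I:C) 1 to 4. All poly(I:C) libraries lay above all knockout saline libraries and within or just above the FVB range. The difference under poly(I:C) was 0.21 (log2, SE 0.077; adjusted p = 0.179 by edgeR). It was 0.28 without the Ttr-high libraries (adjusted p = 0.467 by edgeR). In GENCODE M21 exons of 4430402I18Rik, on the opposite strand, cover 31.9% of its exon length. Slc17a6, which encodes the vesicular transporter VGLUT2, averaged 20.9, 18.9 and 19.6 CPM and did not pass.

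Of the vesicle and release genes, Syt2 fell against FVB saline and the other 7 passed in no comparison. Syt2 encodes a fast calcium sensor for vesicle fusion that is typical of the hindbrain. Syt2 measured 675, 719, 671 and 644 CPM in FVB saline libraries 1 to 4, 629.5, 555, 629 and 452 CPM in knockout saline 1 to 4, and 596, 552, 513 and 553 CPM in knockout poly(I:C) 1 to 4. Each of the 8 knockout libraries was below each FVB library. Syt2 fell against FVB saline by 0.29 (log2, SE 0.087; 0.817 times the level; adjusted p = 0.0496 by edgeR). The Syt2 log2 value without the Ttr-high libraries was -0.24 (adjusted p = 0.429 by edgeR). The call was lost without any 1 FVB saline library, knockout saline 2 or knockout poly(I:C) 2, 3 or 4, with adjusted p up to 0.162.

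Syt1, the sister calcium sensor, averaged 617, 719 and 685 CPM, with all knockout saline libraries above all FVB libraries. The vesicle-tethering synapsins Syn1 and Syn2 averaged 232, 236 and 237 CPM, and 317, 324 and 285 CPM. Stx1a, a plasma membrane SNARE, averaged 3.16, 2.44 and 2.29 CPM, and the active zone gene Rims1 251, 265 and 269 CPM. Snap25 averaged 3568, 3349 and 3396 CPM and Vamp2 808, 836 and 754 CPM, with all Vamp2 values under poly(I:C) below all those in knockout saline.

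Ratios of 2 members' counts within a library do not depend on scaling between libraries, and 6 were compared in 3 comparisons each, 18 tests in all. The ratio of Syt1 to Syt2 was 0.849, 0.935, 0.875 and 0.989 in FVB saline 1 to 4, 1.18, 1.28, 1.20 and 1.49 in knockout saline 1 to 4, and 1.07, 1.18, 1.33 and 1.39 in knockout poly(I:C) 1 to 4. It was below 1 in every FVB library and above 1 in every knockout library. On the log2 scale the difference from FVB saline was 0.49 in knockout saline and 0.44 in knockout poly(I:C), each with p = 0.0286 in a two-sided exact permutation test. That is the smallest p that 4 against 4 libraries allow, and it was 0.257 after Benjamini-Hochberg adjustment over the 18 exact tests. With the Ttr-high libraries left out the differences were 0.49 and 0.42 (exact permutation p = 0.0571 and 0.133), and the groups still did not overlap. Both p are the smallest that 4 against 3 and 4 against 2 libraries allow, so neither could fall under 0.05. The ratio of Gria1 to Gria2 differed by -0.60 under poly(I:C) (exact permutation p = 0.0571, adjusted 0.343). No ratio of Grin2b to Grin2a, Camk2a to Camk2b, Homer1 to Homer2 or Slc17a6 to Slc17a7, the main vesicular transporter gene of granule cells, reached an unadjusted p under 0.05 in these exact tests.

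**Figure D4:**
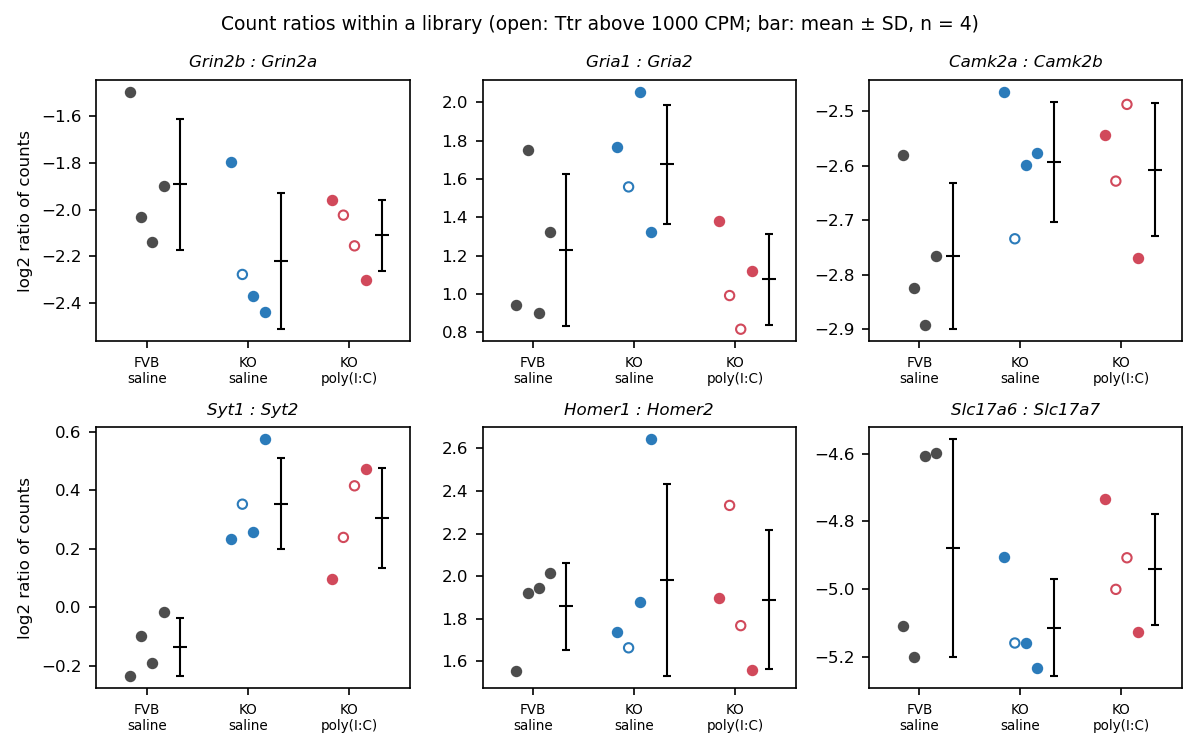
Log2 ratio of 2 genes' counts in every library for 6 pairs, with the mean ± SD (n = 4) beside each group; open points are the 3 libraries above 1000 CPM of Ttr. The ratio of Syt1 to Syt2 averages -0.14 in FVB saline, 0.36 in knockout saline and 0.31 in knockout poly(I:C), and all 8 knockout libraries lie above the FVB libraries.

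A list of 72 further genes of the same synapses was counted in the same fit, of which 71 were tested. In knockout saline against FVB saline 0 rose and 3 fell by edgeR, against 0.814% and 0.720% of all genes, and without the Ttr-high libraries the same 3 fell. Rims3, an active zone gene, measured 481 ± 25.1, 369 ± 27.7 and 322 ± 22.5 CPM in the 3 groups (SD, n = 4 each) and fell by 0.38 on the log2 scale in knockout saline (adjusted p = 0.00529 by edgeR). The activity-regulated pentraxin gene Nptx2 (1.62, 0.404 and 0.644 CPM) fell by 1.97 and the AMPA receptor auxiliary gene Cnih3 (3.13, 1.19 and 1.28 CPM) by 1.40, with adjusted p = 0.0055 and 0.0344. Nptx2 is the secreted partner of Nptxr.

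Under poly(I:C) 0 of the 71 rose and 3 fell (1.81% and 1.06% of all genes), and 0 were called without the Ttr-high libraries. The genes that fell included the kinase gene Camk2g, by 0.34 on the log2 scale (adjusted p = 0.0357 by edgeR) and the SNARE gene Snap47 by 0.25 (0.0464). In knockout poly(I:C) against FVB saline 1 rose and 9 fell (3.81% and 3.24% of all genes). Only Rims3 was called by edgeR without the Ttr-high libraries, at -0.51 (adjusted p = 0.0024), and Glul stood at 0.87 (0.112). The riser was Glul, the glutamine synthetase of astrocytes, at 702 ± 123, 856 ± 97.1 and 1349 ± 349 CPM and a log2 fold change of 0.94 (adjusted p = 0.0140 by edgeR). On the log2 scale Rims3 fell by 0.58 (adjusted p = 1.68e-05 by edgeR), Camk2g by 0.42 (0.00489), Sv2b, a vesicle glycoprotein gene, by 0.32 (0.0157) and Rph3a, a Rab3 effector gene, by 0.26 (0.0288). Slc38a1, a glutamine transporter gene, fell by 0.23 (0.0261), Nptx2 by 1.32 (0.0234) and Cnih3 by 1.28 (0.0184).

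Markers of several cell types moved beside the falls against FVB saline. Of 10 cerebellar interneuron markers 4 fell in knockout poly(I:C) (Gad1, Sorcs3, Kit and Nxph1) and none rose, by -0.34 to -0.54 on the log2 scale, and their sum was 2292 to 2771 CPM in FVB saline, 2096 to 2467 CPM in knockout saline and 2038 to 2311 CPM in knockout poly(I:C). Of 10 Purkinje cell markers 2 fell, and the sum of the list was 7940 to 8842, 7845 to 9553 and 7449 to 8332 CPM. Of 9 granule cell markers 1 fell (Calb2), with sums of 6481 to 7344, 6739 to 7386 and 6488 to 6942 CPM. By edgeR 0 of the interneuron and 0 of the Purkinje cell markers were called without the Ttr-high libraries, and Calb2 fell. No marker of these 3 lists had 0 counts in any group. Against FVB saline 1 of 9 astrocyte markers (Aqp4, by 0.33 on the log2 scale) and 1 of 9 microglial markers (P2ry12, 0.59) fell. So did 1 of 9 oligodendrocyte markers (Opalin, 1.00) and 1 of 8 endothelial and mural markers (Tek, 0.95). C1qb of microglia rose by 0.65, Mobp of oligodendrocytes by 0.52 and Spp1, from the list of cerebellar nuclei, brainstem and forebrain neurons, by 0.82. Over all genes 3.24% fell and 3.81% rose. Fold changes were positive for 4 astrocyte, 2 microglial, 3 oligodendrocyte and 4 endothelial and mural markers and negative for 5, 7, 6 and 4. By edgeR without the Ttr-high libraries, Opalin (adjusted p = 0.0252) and Tek (0.00221) still fell. Aqp4, P2ry12, C1qb, Mobp and Spp1 were then not called, and the astrocyte marker Gfap rose (0.0148). All 10 interferon-stimulated genes rose under poly(I:C), from sums of 48.0 to 69.2 CPM in knockout saline to 401 to 515 CPM. The part of these changes in the members' falls was not tested.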

How the data were processed

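RNA from 12 cerebellar crus 1 samples was measured. The authors deposited read counts per Ensembl gene; trimming with Trim Galore, alignment with HISAT2 to GRCm39 and counting with featureCounts are named in the submitters' processing notes, without versions. The sources used here do not state the strand setting. Groups came from the labels. The 43 genes and all other lists were chosen with earlier results of these data known. Symbols and exon lengths came from GENCODE M21 (GRCm38), which named 52029 of 57010 genes holding 99.4% of counts. edgeR 4.0.16 (R 4.3.3) kept 19166 genes (filterByExpr, minimum count 10, total 15), scaled them by TMM and fitted a robust quasi-likelihood model to 3 group means with 9 residual degrees of freedom. Adjusted p-values are Benjamini-Hochberg over all tested genes, and genes under 0.05 are said to have passed, risen or fallen. Each SE was taken as |log2 fold change| divided by the root of its F statistic. Ratios were compared with exact permutation tests (scipy 1.17.1). Full values are given for every member that passed and for the smallest p in each role, and pathway genes outside the 43 are named where called, except some that are not reported here. Alternatives were DESeq2 1.42.0, limma-voom (limma 3.58.1), RLE and upper quartile scaling, other filters, fits restricted to the groups compared, a replicate block and dropping each library in turn. Fits without the libraries above 1000 CPM of Ttr and log2 Ttr as a covariate were added after seeing the data.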

Additional observations from a re-analysis of the deposited data

Results flagged for a closer look

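In each group of 4 libraries, every member's CPM and every ratio was checked for 1 library whose gap to its nearest neighbour exceeded Dixon's critical share of the group's range. Of 147 groups 7 did so, where chance gives about 5%. In knockout poly(I:C), Gria4 stood apart at 608 CPM in library 1 (next 533), Grin1 at 198 CPM in library 3 (next 179), Grid1 at 32.3 CPM in library 1 (next 25.3) and Homer1 at 41.6 CPM in library 2 (next 38.1). On the low side, Dlg2 stood at 386 CPM in library 4 (next 403) and Snap25 at 3169 CPM in library 3 (next 3462). In knockout saline, Dlgap3 stood at 90.9 CPM in library 3, while the next library had 70.0 CPM. Libraries 2 and 3 of knockout poly(I:C) are 2 of the 3 libraries above 1000 CPM of Ttr. The cause of these gaps was not tested.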

How the results depend on the processing

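In the comparison with its smallest p, each of the 15 members given in full kept its direction under all 22 alternatives. In the others, Syt2 under poly(I:C) went from -0.03 to 0.013 without the Ttr-high libraries, and Gria1 in knockout poly(I:C) against FVB saline from -0.04 to 0.08. For knockout saline against FVB saline (294 genes and 0 members called), DESeq2 called 633 genes and 3 members and no filter 506 and 3. A fit of only the groups compared gave 327 genes and 1 member, and log2 Ttr as a covariate 286 and 1. Leaving out 1 library gave 156 to 300 genes and 0 to 1 members. For poly(I:C) within the knockout (550 genes, 4 members), DESeq2 called 986 genes and 4 members, and a fit of only the groups compared left 514 genes and 2 members. Without the Ttr-high libraries 215 genes and 0 members remained called, and leaving out 1 library gave 347 to 689 genes and 0 to 5 members. For knockout poly(I:C) against FVB saline (1352 genes, 6 members), DESeq2 called 1935 genes and 12 members and limma-voom 1230 and 3. A stricter filter (10 or more counts in 8 libraries) gave 1271 genes and 3 members. Without the Ttr-high libraries 556 genes and 0 members were called, and log2 Ttr as a covariate left 1025 genes and 1 member. Leaving out 1 library gave 791 to 1542 genes and 1 to 8 members. The cause of these differences was not tested, beyond the smaller number of samples where libraries were left out. With the replicate block, 0, 2 and 6 members were called in the 3 comparisons, among 274, 563 and 1322 genes. It ended the calls of Grin1 (adjusted p = 0.0535 by edgeR) and Grik2 (0.0502) under poly(I:C) and of Cacng5 (0.05003) against FVB saline, where Gria3 was gained. The replicate numbers showed no clear pairing: same-number correlations ran from -0.0987 to 0.145, and the others from -0.142 to 0.164. Of 12 libraries 1 correlated best with its own number. With 4 libraries a group this check cannot exclude a pairing. With 4 libraries a group, differences as small as that of Dlg1 did not pass, and the low counts of Dlgap2 left its SE at 0.32.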

Other observations

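The 43 genes differed in how much they varied between libraries of 1 group. Gria2, the AMPA subunit gene that sets calcium permeability, had a coefficient of variation (CV) of CPM of 22.0% in FVB saline, 12.4% in knockout saline and 5.92% in knockout poly(I:C). Homer1, a scaffold gene with activity-regulated transcripts, had CVs of 20.1%, 25.1% and 5.05% in the same order, and the synapsin gene Syn1 12.5%, 9.05% and 1.26%. Gria1 went the other way, with 5.54%, 10.1% and 14.8%. Dlg1, whose groups did not overlap, had 2.46%, 1.55% and 1.55%. These genes were chosen after their values were seen, each CV rests on 4 libraries, and no difference in spread was tested.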
